A study of Homo sapiens with 16 samples.

Results

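The genes described here are 9 members of the bone morphogenetic protein (BMP) and transforming growth factor beta (TGF-beta) pathways, chosen by name: the ligands BMP2, BMP4, TGFB1 and TGFB2, the target genes ID1, ID2 and ID3, and the inhibitory SMADs SMAD6 and SMAD7. All 9 were found among the 58735 genes of the tables. RNA was sequenced from NCI-H1975 and HCC827, established human lung adenocarcinoma lines that carry activating mutations of EGFR and are used to study EGFR inhibitors and resistance to them. NCI-H1975 libraries came from control cells, from cells given magnolin (a lignan of Flos Magnoliae, the flower buds of Magnolia) and from cells given a chloroform fraction of the same buds; each of these groups has 4 libraries. HCC827 is represented by 2 libraries of parental cells, labelled wild type; resistant HCC827 cells were not analysed here. The labels name no vehicle for the controls and state neither dose nor length of exposure for the 2 treatments, which may differ in both. They also do not say that the replicates were separate cultures, so the tests measure the spread between libraries only, and that spread may be technical.

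BMP and TGF-beta ligands are secreted dimers that bind paired type I and type II serine/threonine kinase receptors. BMP receptors mainly phosphorylate SMAD1, SMAD5 and SMAD9, and TGF-beta receptors mainly phosphorylate SMAD2 and SMAD3; both groups enter the nucleus with SMAD4. ID1, ID2 and ID3 encode inhibitors of basic helix-loop-helix transcription factors and are standard readouts of BMP signalling, while SMAD6 and SMAD7 are induced by the pathways and block receptors and SMADs in return. In epithelial cancers, lung adenocarcinoma included, TGF-beta signalling is known for growth arrest in some settings and for epithelial-mesenchymal transition in others.

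Levels are given as FPKM, reads per kilobase of gene scaled to library size, so they can be compared between genes within a library. The values stand in 3 tables that were normalized separately: NCI-H1975 replicates 1 and 2 of every group, NCI-H1975 replicates 3 and 4, and HCC827. Depth, rebuilt from FPKM and gene length, was 18.4 to 21.3 M reads in the first table, 16.0 to 17.0 M in the second and 15.9 to 16.4 M for HCC827. In NCI-H1975 all 6 epithelial markers reached 1 FPKM in every library, but of 5 lung lineage markers only NKX2-1 did, and NAPSA was between 0.104 and 0.446 FPKM. In HCC827 4 of these 5 did. The 7 fibroblast markers summed to 2.15 to 25.2 FPKM in NCI-H1975, most of it COL1A2 (0.543 to 21.1 FPKM) and COL1A1 (1.39 to 3.12 FPKM), while DCN, COL3A1 and PDGFRA stayed below 0.1 FPKM in every library. The 5 endothelial markers summed to 0.517 to 6.34 FPKM, with VWF and TEK below 0.1 FPKM in every library, and all 6 immune markers together came to 0.781 to 2.88 FPKM.

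The replicate 1 libraries of all 3 NCI-H1975 groups stood apart from the other 9. EPCAM, an epithelial adhesion protein, was at 172 to 193 FPKM in replicate 1 and at 7.65 to 14.4 FPKM in replicates 2, 3 and 4. The 6 epithelial markers summed to 1111 to 1313 FPKM in replicate 1, to 393 to 581 in replicate 2 and to 410 to 619 in replicates 3 and 4. The median absolute log2 difference between replicates 1 and 2 over 9415 protein-coding genes was 0.365 in control, 0.357 with magnolin and 0.379 with the fraction. Between replicates 3 and 4 it was 0.0808, 0.0808 and 0.159. Tests were made within each table and the results of the 2 tables are given side by side. The split between replicates 1 and 2 lies inside the first table and adds to the spread of its tests unless the replicate number is a block; a fit over all 4 replicates is given with and without replicate 1.

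Promoter sequence of the members was read from RefSeq (GRCh38.p14), 250 bases before and 50 bases after each annotated start, which gave 12 windows for 8 of the 9 genes; BMP2 had no entry. Both strands were searched for the SMAD palindrome GTCTAGAC, the CAGA box CAGACA, the GC-rich BMP element GGCGCC and the TATA box TATAAA; GTCTAGAC and GGCGCC read the same on both strands, and no letters of 1 motif contain another. The windows below are those that hold a SMAD-type motif, with that of ID1, the most abundant member, for comparison. Capitals mark the 4 motifs or their reverse complements.
SMAD6, chr15:66701986-66702285, plus strand: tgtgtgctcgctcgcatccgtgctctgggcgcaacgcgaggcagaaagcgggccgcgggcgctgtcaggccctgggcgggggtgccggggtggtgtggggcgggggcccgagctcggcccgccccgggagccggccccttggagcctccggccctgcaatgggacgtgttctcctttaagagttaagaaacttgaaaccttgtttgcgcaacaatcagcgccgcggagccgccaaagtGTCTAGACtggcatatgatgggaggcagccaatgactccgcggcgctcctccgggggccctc
BMP4, chr14:53953346-53953645, minus strand: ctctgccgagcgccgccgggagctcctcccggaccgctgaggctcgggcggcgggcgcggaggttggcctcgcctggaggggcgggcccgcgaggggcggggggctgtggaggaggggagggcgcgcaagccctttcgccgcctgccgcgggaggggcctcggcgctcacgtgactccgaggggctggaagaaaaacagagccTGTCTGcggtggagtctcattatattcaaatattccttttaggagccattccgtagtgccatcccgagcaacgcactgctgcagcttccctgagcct
BMP4, chr14:53955001-53955300, minus strand: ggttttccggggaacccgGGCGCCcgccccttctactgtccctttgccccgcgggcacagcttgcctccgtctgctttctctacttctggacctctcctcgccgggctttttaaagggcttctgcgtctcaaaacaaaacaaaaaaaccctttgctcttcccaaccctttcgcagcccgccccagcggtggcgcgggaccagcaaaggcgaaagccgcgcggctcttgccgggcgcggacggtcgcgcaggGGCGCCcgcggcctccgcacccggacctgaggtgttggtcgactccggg
TGFB2, chr1:218345086-218345385, plus strand: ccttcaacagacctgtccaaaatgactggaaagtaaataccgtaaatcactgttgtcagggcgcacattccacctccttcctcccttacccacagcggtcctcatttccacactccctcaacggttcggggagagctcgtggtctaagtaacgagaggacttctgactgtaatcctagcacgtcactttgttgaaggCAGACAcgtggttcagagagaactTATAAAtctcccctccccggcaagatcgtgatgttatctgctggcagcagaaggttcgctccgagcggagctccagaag
ID1, chr20:31605039-31605338, plus strand: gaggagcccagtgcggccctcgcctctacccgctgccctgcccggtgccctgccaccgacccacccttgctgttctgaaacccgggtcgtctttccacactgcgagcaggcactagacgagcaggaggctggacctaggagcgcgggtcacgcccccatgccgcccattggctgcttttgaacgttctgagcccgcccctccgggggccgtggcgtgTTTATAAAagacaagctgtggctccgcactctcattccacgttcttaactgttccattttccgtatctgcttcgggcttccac
SMAD6 was the only member with the palindrome in these windows; it begins 12 bases upstream of the start, and 71 of 35116 RefSeq windows (0.202%) hold one. The CAGA box stood once in a BMP4 window, 47 bases upstream, and once in the TGFB2 window, 53 bases upstream; 16.9% of all windows hold it. GGCGCC stood 2 times in another BMP4 window, and 19.2% of all windows hold it. The ID1 window held none of these 3, and a TATA box, present in 11.5% of windows, lay 33 bases upstream of its start. The windows of ID2, ID3, SMAD7 and TGFB1 held neither palindrome, CAGA box nor GGCGCC. A match is a run of letters and shows no binding.

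In untreated NCI-H1975 cells the BMP target ID1 was the most abundant member and SMAD6 the least. In control replicates 3 and 4 the mean level was 46.3 FPKM for ID1, 24.5 for BMP4, 15.9 for BMP2, 15.3 for ID3, 12.01 for TGFB1, 10.2 for TGFB2, 2.07 for SMAD7, 2.04 for ID2 and 0.694 for SMAD6. Among neighbours in this order, BMP2 (15.5 to 16.3 FPKM) and ID3 (14.1 to 16.4 FPKM) overlapped, as did SMAD7 and ID2; the others did not, with 2 libraries each. In parental HCC827, ID1 again led at 60.4 ± 2.71 FPKM (SD, n = 2), followed by TGFB1 at 13.2 ± 0.0979 and TGFB2 at 10.8 ± 1.24. ID3 was at 5.40 FPKM, BMP2 at 3.76, SMAD6 at 3.48, SMAD7 at 3.22, ID2 at 2.85 and BMP4 at 1.07. SMAD6 thus stood above SMAD7 in both HCC827 libraries and below it in all 12 NCI-H1975 libraries. The levels of the 2 lines come from tables normalized separately and were not tested against each other.

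**Figure D1:**
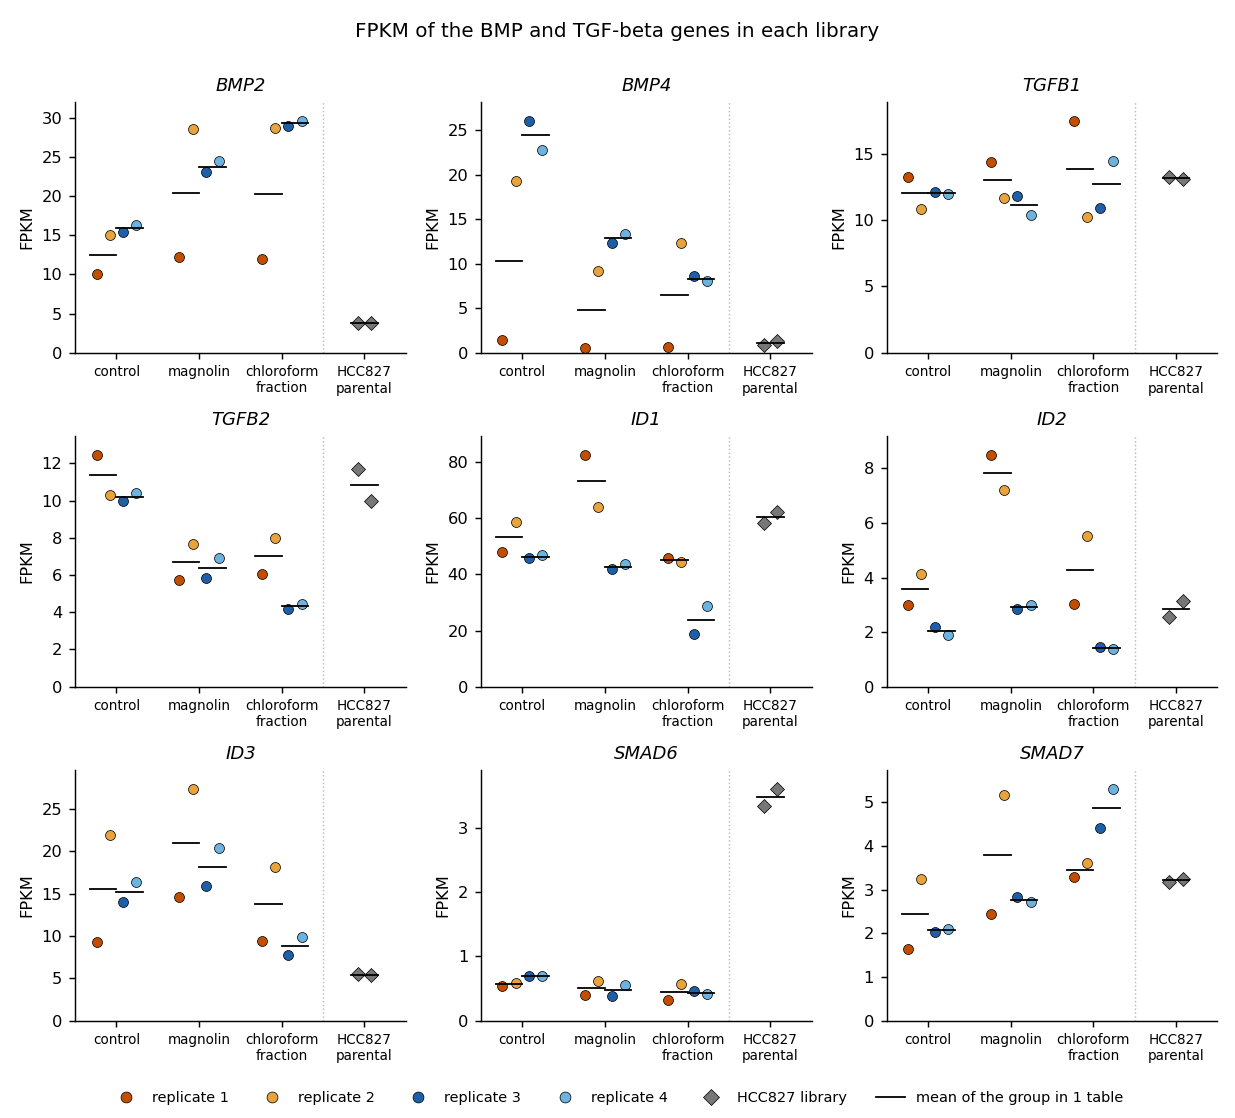
FPKM of each of the 9 genes in every library, by group; circles are NCI-H1975 libraries coloured by replicate number, diamonds are parental HCC827 libraries, and black lines are means of a group within 1 table. BMP4 lies near 0 in the 3 replicate 1 libraries, and TGFB2 lies lower in every treated library than in every NCI-H1975 control.

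BMP4, a ligand of the BMP branch (gene ENSG00000125378, hg38 chr14:53949736-53958761, minus strand), was lower in treated cells than in the control of the same number in all 4 replicates of both treatments. Control cells had 1.44, 19.3, 26.1 and 22.8 FPKM in replicates 1 to 4, magnolin-treated cells 0.534, 9.16, 12.3 and 13.4, and fraction-treated cells 0.662, 12.3, 8.61 and 8.03. The groups do not overlap in replicates 3 and 4, with the control libraries highest and the fraction libraries lowest. There BMP4 fell by 0.88 with magnolin (SE 0.0947, adjusted p = 0.0265) and by 1.45 with the fraction (SE 0.0947, adjusted p = 0.00081) on the scale of log2(FPKM + 1), by limma with Benjamini-Hochberg adjustment over 14673 genes. With the replicate number as a block the magnolin call was lost (adjusted p = 0.065). For replicates 1 and 2 the changes were -0.83 and -0.58 with an SE of 1.49 in the fit that does not pair the libraries, and neither passed. With the replicate block the SE there was 0.178; the magnolin change passed (adjusted p = 0.0389) and the fraction change did not (adjusted p = 0.337), by limma.

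The difference between replicate 1 and the rest was larger for BMP4 than any treatment effect on it. Replicate 2 exceeded replicate 1 by 13.4-fold in control, 17.2-fold with magnolin and 18.6-fold with the fraction. Replicate 1 values rest on 31 to 87 reads, replicates 2 to 4 ranged from 8.03 to 26.1 FPKM, and parental HCC827 had 0.847 and 1.29 FPKM. Of 9415 protein-coding genes, 11 (0.117%) were at least 10-fold higher in replicate 2 than in replicate 1 in all 3 groups, and BMP4 was one of them; 29 were that much higher in replicate 1. COL1A2, a fibrillar collagen gene, was at 0.543 to 1.14 FPKM in replicate 1 and at 7.94 to 21.1 in the others. Whether these marker differences have a part in the BMP4 level was not tested.

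**Figure D2:**
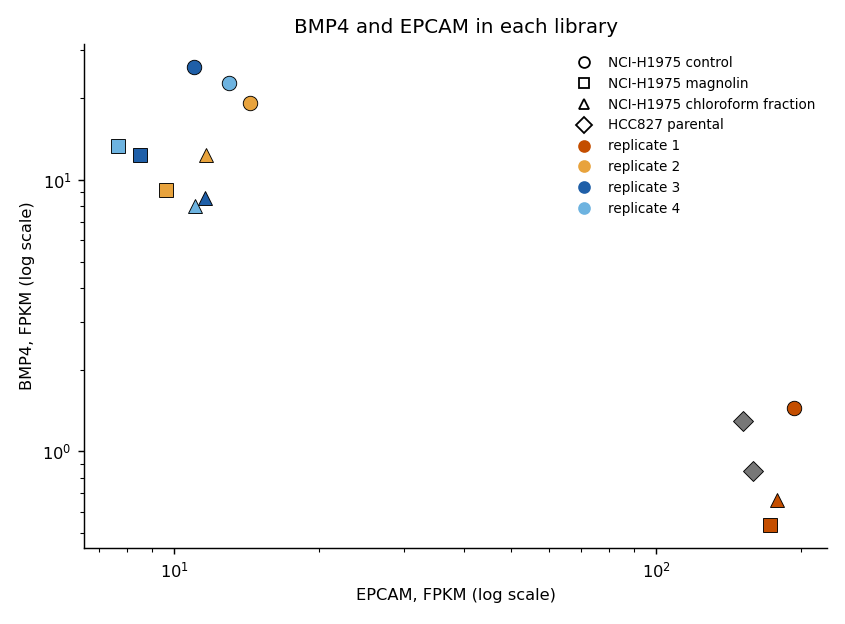
BMP4 against EPCAM in each of the 14 libraries, both in FPKM on log axes; shapes are groups and colours are NCI-H1975 replicate numbers. On these 2 genes the 3 replicate 1 libraries (EPCAM 172 to 193, BMP4 0.534 to 1.44 FPKM) lie beside parental HCC827 and away from the other 9 NCI-H1975 libraries. Other genes set replicate 1 and HCC827 apart. SMAD6 was at 0.318 to 0.542 FPKM in replicate 1 and 3.34 and 3.62 in HCC827, and BMP2 at 10.01 to 12.2 and 3.74 and 3.79. The 2 lines come from tables normalized separately.

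TGFB2, a TGF-beta ligand with roles in development (ENSG00000092969, chr1:218346235-218444619, plus strand), was lower than control with both treatments in both tables, with no overlap between treated and control libraries. Control libraries had 12.5, 10.3, 9.97 and 10.4 FPKM in replicates 1 to 4. Magnolin libraries had 5.76, 7.65, 5.82 and 6.92 FPKM, and fraction libraries 6.08, 7.97, 4.18 and 4.44. All 8 treated libraries lie below all 4 controls, and replicate 1 does not stand apart. In replicates 3 and 4 TGFB2 fell by 1.07 on the log2 scale with the fraction (SE 0.099, adjusted p = 0.00206); with magnolin its change of -0.61 had an adjusted p of 0.0723 and did not pass by limma, though it did with voom on rebuilt reads (adjusted p = 0.00139; 0.0542 to 0.393 under the other alternatives). In replicates 1 and 2 the changes were -0.69 with magnolin (SE 0.259, unadjusted p = 0.0372 by limma) and -0.63 with the fraction (unadjusted p = 0.0506), and neither passed after adjustment.

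BMP2, the other BMP ligand among the members (ENSG00000125845, chr20:6767664-6780280, plus strand), moved opposite to BMP4. Its level was 10.01, 15.1, 15.5 and 16.3 FPKM in control replicates 1 to 4. It was 12.2, 28.6, 23.1 and 24.5 FPKM with magnolin and 11.9, 28.7, 29 and 29.7 FPKM with the fraction, so each treated library exceeded its control and replicate 1 was lowest in every group. BMP2 rose in replicates 3 and 4, by 0.55 with magnolin (SE 0.0725, adjusted p = 0.0429; 0.0867 with the replicate block) and by 0.84 with the fraction (SE 0.0725, adjusted p = 0.00176), by limma. For replicates 1 and 2 the changes of 0.57 and 0.56 had an SE of 0.551 and did not pass. Within replicate numbers the fraction to control ratio ran from 1.19 to 1.91 and the magnolin to control ratio from 1.22 to 1.90.

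TGFB1, the TGF-beta ligand most studied in tumours (ENSG00000105329, chr19:41301587-41353911, minus strand), showed no direction. Control libraries had 13.2, 10.8, 12.1 and 11.9 FPKM, magnolin libraries 14.3, 11.6, 11.8 and 10.4, and fraction libraries 17.5, 10.3, 10.9 and 14.5. The groups overlap, and each treatment was above control in 2 replicates and below it in 2. Its log2 change in replicates 3 and 4 was -0.11 with magnolin (SE 0.136) and 0.06 with the fraction (SE 0.136), with adjusted p of 0.775 and 0.779 by limma. TGFB1 overlaps HNRNPUL1 and CCDC97 on the other strand, which reached 50.4 and 10.4 FPKM, and the strand setting is not given in the sources used here, so reads in the shared stretch cannot be told apart.

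Among the target genes, ID1 (ENSG00000125968, chr20:31605283-31606515, plus strand), the ID gene most used as a BMP readout, was lower with the fraction in all 4 replicates and had no common direction with magnolin. Control libraries had 48.2, 58.7, 45.9 and 46.8 FPKM, and magnolin libraries 82.7, 64.1, 41.9 and 43.6. Fraction libraries had 46.0, 44.5, 18.6 and 28.9 FPKM. The magnolin libraries of replicates 1 and 2 are above every control, and those of replicates 3 and 4 are below every control. In replicates 3 and 4 ID1 fell by 0.97 with the fraction (SE 0.187, adjusted p = 0.0185) while its magnolin change was -0.11 (SE 0.187, adjusted p = 0.831), by limma. For replicates 1 and 2 the changes were -0.23 with the fraction and 0.45 with magnolin (SE 0.251), and neither passed. The fraction library of replicate 1 was close to its control (ratio 0.955).

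ID3 (ENSG00000117318, chr1:23557918-23559794, minus strand) followed ID1 with the fraction in replicates 3 and 4. It had 9.31, 21.9, 14.1 and 16.4 FPKM in control replicates 1 to 4, 14.7, 27.4, 16.0 and 20.4 with magnolin, and 9.41, 18.1, 7.76 and 9.94 with the fraction. With the fraction, replicates 3 and 4 lie below both controls of that table and replicate 1 is level with its control (ratio 1.01). ID3 fell by 0.73 with the fraction in replicates 3 and 4 (SE 0.162, adjusted p = 0.0288 by limma). Its level was higher with magnolin than in the control of the same number in 4 of 4 replicates, with ratios of 1.14 to 1.58, but the change of 0.24 in replicates 3 and 4 did not pass (SE 0.162, adjusted p = 0.58).

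ID2 (ENSG00000115738, chr2:8678845-8684453, plus strand) had the widest range of magnolin to control ratios among the 9 members, 1.30 to 2.83. Control libraries had 3.01, 4.13, 2.19 and 1.89 FPKM, magnolin libraries 8.51, 7.19, 2.86 and 2.99, and fraction libraries 3.01, 5.52, 1.45 and 1.37. Magnolin libraries are above their controls in all 4 replicates, most in replicate 1 and least in replicate 3. The log2 change was 0.96 in replicates 1 and 2 (SE 0.311, unadjusted p = 0.0216 by limma) and 0.37 in replicates 3 and 4 (SE 0.121, adjusted p = 0.257), and neither passed; with the replicate block the first did (SE 0.209, adjusted p = 0.0434). With the fraction ID2 was level with its control in replicate 1, higher in replicate 2 and lower in replicates 3 and 4, with no change past the test.

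SMAD7 (ENSG00000101665, chr18:48919853-48952052, minus strand), an inhibitor of both branches, was higher than control in all 4 replicates of both treatments. Control libraries had 1.65, 3.24, 2.04 and 2.10 FPKM, magnolin libraries 2.44, 5.17, 2.82 and 2.72, and fraction libraries 3.29, 3.62, 4.403 and 5.32. In replicates 3 and 4 the fraction libraries are highest and the 3 groups do not overlap. SMAD7 rose by 0.93 with the fraction there (SE 0.112, adjusted p = 0.00439), and its magnolin change of 0.30 did not pass (SE 0.112, adjusted p = 0.316), by limma. The fraction to control ratio was 1.99, 1.12, 2.16 and 2.53 in replicates 1 to 4.

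SMAD6 (ENSG00000137834, chr15:66702228-66782848, plus strand), which acts mainly on the BMP branch, was below 1 FPKM in every NCI-H1975 library and so was in none of the main tests; 8 of the 9 members passed the filter. It had 0.542, 0.589, 0.699 and 0.688 FPKM in control, 0.397, 0.623, 0.385 and 0.557 with magnolin and 0.318, 0.572, 0.459 and 0.410 with the fraction. The fraction library was below its control in 4 of 4 replicates. With no filter its log2 change with the fraction in replicates 3 and 4 was -0.24 (SE 0.135, adjusted p = 0.46 by limma), on a scale that understates changes at such levels. The lowest of these libraries held 52 SMAD6 reads. In HCC827 SMAD6 was at 3.34 and 3.62 FPKM.

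**Figure D3:**
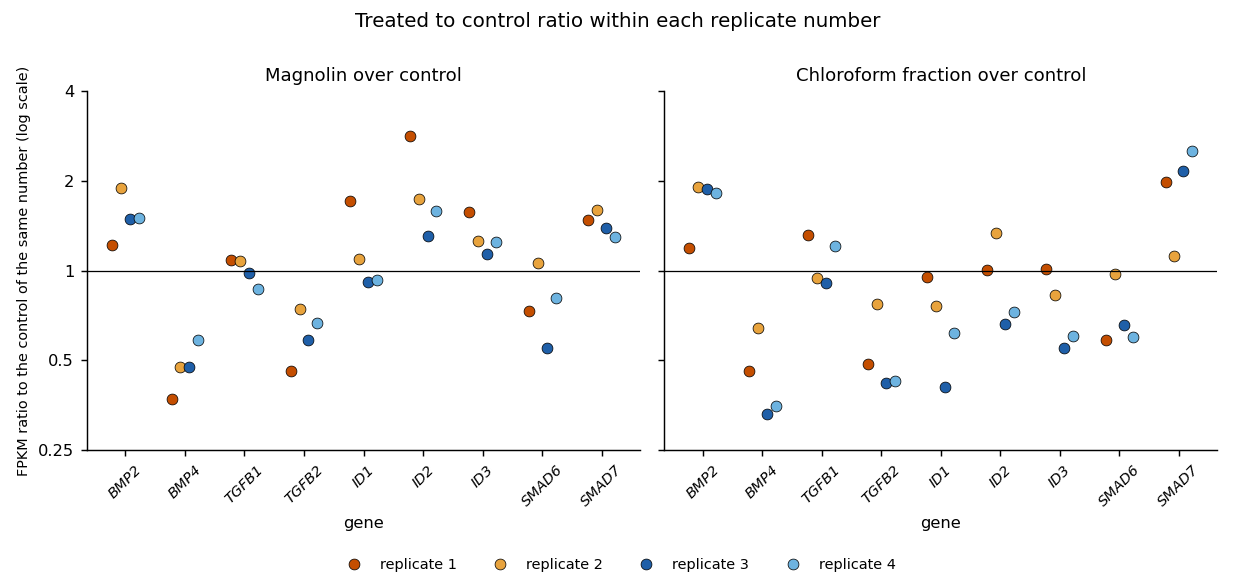
FPKM of the treated library divided by that of the control with the same replicate number, on a log axis with 1 for no difference, for magnolin (left) and the chloroform fraction (right). BMP4 and TGFB2 lie below 1, and BMP2 and SMAD7 above 1, in all 4 replicates of both treatments. TGFB1 with both treatments, ID1 and SMAD6 with magnolin, and ID2 and ID3 with the fraction lie on both sides.

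Counted over the members, 6 of the 8 tested genes passed with the fraction in replicates 3 and 4: BMP2 and SMAD7 rose, and BMP4, TGFB2, ID1 and ID3 fell. Over all 14673 genes 19.9% passed in this comparison, 8.33% higher and 11.6% lower. With magnolin 2 of 8 passed, BMP2 higher and BMP4 lower, against 0.627% of all genes. The median log2 change of the 8 members was -0.53 with the fraction and 0.06 with magnolin, beside -0.01 and 0.01 over all genes. Both comparisons use the same 2 control libraries. No gene, member or other, passed in replicates 1 and 2 (0.0% of 13103 in each of the 3 comparisons by limma). Of these 13103 genes, 255 had an unadjusted p under 0.05 with magnolin, ID2 and TGFB2 among them, and 107 with the fraction, with no member. The split between replicates 1 and 2 adds to the spread of these tests. In this table limma's voom method on rebuilt reads also called none.

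The magnolin calls were lost when any control or magnolin library of that table was left out. Leaving out any 1 of the control or magnolin libraries of replicates 3 and 4 left 0 genes called, with adjusted p of 0.145 to 0.233 for BMP4 and of 0.194 to 0.362 for BMP2. With the replicate number as a block neither BMP4 nor BMP2 passed there. For replicates 1 and 2 the block had the opposite effect: 130 genes passed with magnolin (0.992%), and 2 of 8 members were among them, BMP4 lower and ID2 higher. Voom on rebuilt reads called 577 genes with magnolin in replicates 3 and 4 and 3 members, BMP2, BMP4 and TGFB2. With the fraction in replicates 3 and 4, BMP4, TGFB2, BMP2 and SMAD7 passed under all 10 alternatives. Median-ratio rescaling, which is among these, gave the deposited values again and so could not test the calls. ID1 was not called without control replicate 3 (adjusted p = 0.092) or control replicate 4 (adjusted p = 0.107). ID3 was not called without either control (0.0836 and 0.16) or without fraction replicate 3 (0.075). With no filter on low values both also missed the threshold (0.078 for ID1 and 0.1 for ID3).

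**Figure D4:**
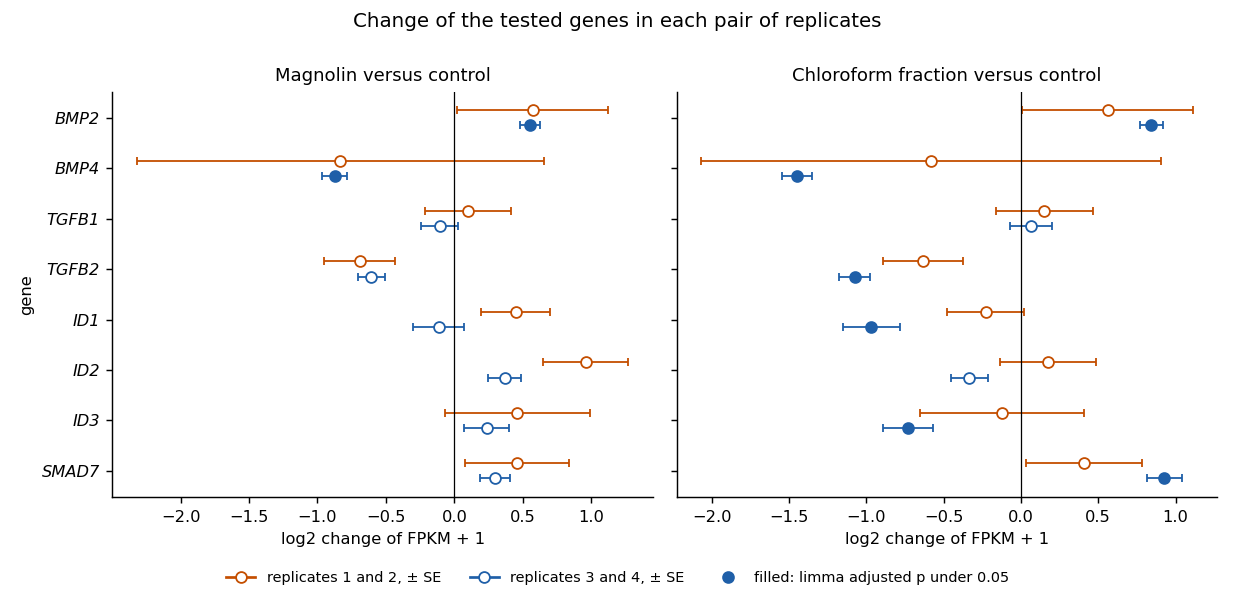
Change of log2(FPKM + 1) against control (points, with SE as bars) for the 8 tested members, in replicates 1 and 2 (orange) and in replicates 3 and 4 (blue); filled points have a limma adjusted p under 0.05. With the fraction 6 of 8 blue points are filled, with magnolin 2, and no orange point is; the widest bars are those of BMP4 in replicates 1 and 2 (SE 1.49).

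The sums of epithelial, lung lineage, fibroblast and endothelial markers and the share of mitochondrial reads moved with both treatments in replicates 3 and 4. Lung lineage markers summed to 3.68 to 3.91 FPKM in control, 2.65 to 2.79 with magnolin and 2.48 to 3.19 with the fraction. The immune sum was lower with the fraction (1.10 to 1.19 FPKM, control 1.27 to 1.68) and overlapped control with magnolin (1.16 to 1.36 FPKM). The 6 epithelial markers summed to 613 to 619 FPKM in control, 440 to 445 with magnolin and 410 to 449 with the fraction. With the fraction KRT8, KRT18, KRT19 and CDH1 were below both controls, while EPCAM (11.6 and 11.1 FPKM, control 10.99 and 13.0) and KRT7 (58.3 and 71.0 FPKM, control 58.8 and 61.2) were not. The 5 endothelial markers differed most in proportion: they summed to 4.37 to 6.34 FPKM in control, 1.54 to 1.80 with magnolin and 1.04 to 1.11 with the fraction. CDH5, an endothelial cadherin, was at 4.39 and 3.07 FPKM in control, 0.775 and 0.616 with magnolin and 0.172 and 0.0498 with the fraction. PECAM1 was at 1.82 and 1.196 FPKM in control, 0.911 and 0.856 with magnolin and 0.712 and 0.765 with the fraction. KDR went the other way with the fraction (0.168 and 0.203 FPKM, control 0.0965 and 0.0635), and VWF and TEK were below 0.1 FPKM. The endothelial sum thus rests on CDH5 and PECAM1. The 7 fibroblast markers, of which COL1A2 made up most and 3 were below 0.1 FPKM in all these libraries, summed to 19.7 to 25.2, 15.1 to 15.5 and 9.85 to 10.5 FPKM in the same order. Mitochondrial genes took 5.84% and 5.83% of reads in control, 6.40% and 6.38% with magnolin and 8.17% and 7.04% with the fraction. The part of these differences in the members' changes was not tested. These libraries are bulk RNA of an established cell line. In them, fewer cells with a marker and less of its RNA per cell cannot be told apart.

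Over all 4 replicates, with the replicate number as a block, no member passed by limma. With the fraction 25 of 13614 genes passed (0.184%), and the members nearest to the threshold were TGFB2 at -0.85 (SE 0.141, adjusted p = 0.0529), BMP4 at -1.01 (SE 0.179, adjusted p = 0.0551) and BMP2 at 0.70 (SE 0.124, adjusted p = 0.0551). SMAD7 was at 0.67 (SE 0.165), ID1 at -0.60 (SE 0.177) and ID3 at -0.43 (SE 0.129). With magnolin no gene passed (0.0%); BMP4 was at -0.85, TGFB2 at -0.65, BMP2 at 0.56 and ID2 at 0.66, with adjusted p of 0.226 to 0.286 by limma. At an unadjusted p under 0.05 there were 6 members with either treatment, beside 1302 genes with magnolin and 2547 with the fraction. Without replicate 1, the fraction comparison called 107 genes and BMP2 among the members. With all 4 replicates kept, voom on rebuilt reads called 301 genes with the fraction, BMP2, TGFB2 and BMP4 among them. It called 27 with magnolin, BMP4 among them.

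Whether a treatment effect differed between the 2 tables was tested as an interaction, without the replicate block. No gene passed for either treatment (0.0% of 13614 by limma), and 555 genes with magnolin and 606 with the fraction had an unadjusted p under 0.05. The members' 1 such value was ID1 with the fraction, whose change was 0.74 lower in replicates 3 and 4 than in replicates 1 and 2 on the log2 scale (-0.74, SE 0.306, adjusted p = 0.9996 by limma). For ID2 with magnolin the difference was -0.59 (SE 0.33, adjusted p = 0.9992 by limma), so a difference between the tables was not shown for it. With the replicate block, in a fit not planned beforehand, 56 of 13614 genes (0.411%) passed for the fraction and no member did. BMP4 was then at -0.87 (SE 0.184, adjusted p = 0.0919), ID3 at -0.60 (SE 0.171, adjusted p = 0.197) and ID1 at -0.74 (SE 0.269, adjusted p = 0.323). All 3 had an unadjusted p under 0.05 by limma.

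Set against magnolin, the fraction gave lower levels of all 3 ID genes. Between the treatments 7 of 8 members passed in replicates 3 and 4, against 14.9% of all genes by limma. ID3 was lower with the fraction by -0.96 (adjusted p = 0.018), ID1 by -0.85 (0.0352), ID2 by -0.70 (0.0188), BMP4 by -0.57 (0.0173) and TGFB2 by -0.47 (0.0322). SMAD7 was higher by 0.63 (0.0206) and BMP2 by 0.29 (0.0482; 0.0778 with the replicate block). Leaving out either magnolin library left no member called. Between the treatments in replicates 1 and 2, ID1 was at -0.68 and ID2 at -0.79 (unadjusted p = 0.0365 and 0.045 by limma), with no call. Over all 4 replicates ID3 was at -0.77, ID1 at -0.76 and ID2 at -0.74 and no gene passed (0.0%). No dose is given, so agent and dose cannot be told apart.

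The other genes of the pathway were taken as 7 lists and are given for replicates 3 and 4. Most of the 29 further ligands of the family were near 0: 7 passed the filter. Of these, 2 rose with the fraction: GDF15, a stress-responsive ligand, from 20.8 ± 0.721 to 90.0 ± 19.8 FPKM (SD, n = 2; adjusted p = 0.00115 by limma), and INHBE, an activin subunit, from 0.176 to 1.77 FPKM. INHBE reached 1 FPKM in the fraction libraries only, and it was tested only because of them. With no filter on low values it missed the threshold (adjusted p = 0.055 by limma). So did FSTL3, LTBP3, LTBP4, PMEPA1, SMURF2, TGIF2 and GATA2, which are described below (0.068 to 0.117). Among 12 tested of 16 receptors and coreceptors, 2 fell, the TGF-beta type II receptor TGFBR2 from 35.3 to 22.8 FPKM and the coreceptor TGFBR3 from 4.44 to 1.997 FPKM. Of 5 tested signal-transducing SMADs, SMAD1 fell from 3.47 to 1.79 FPKM and SMAD3 from 15.1 to 11.1 FPKM. These counts stand beside 19.9% of all genes called in this comparison (8.33% higher and 11.6% lower), and the 16.7% of the receptors is near that share.

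Of 9 tested extracellular binders, 3 rose with the fraction: FSTL3, which binds activins, from 17.0 to 32.0 FPKM, and the latent TGF-beta binding proteins LTBP3 and LTBP4. Of 13 intracellular regulators, PMEPA1 and SMURF2, which dampen SMAD signalling, rose and the repressor TGIF2 fell; this 23.1% is near the share of all genes. Of 7 other reported BMP targets, UNC5B rose from 1.14 to 5.41 FPKM and GATA2 fell from 8.23 to 4.76 FPKM. The 16 tested TGF-beta targets reported here split: 5 rose and 4 fell. PMEPA1, counted above as a regulator, is also among the 5. Only the 4 targets with the largest changes in either direction are named next. ANGPTL4, a secreted regulator of lipases, rose from 39.5 to 192 FPKM, LOXL2, a collagen crosslinking enzyme, from 86.5 to 146 FPKM and BHLHE40, a transcriptional repressor, from 20.8 to 35.3 FPKM. CTGF, a matricellular growth factor, fell from 22.2 to 8.20 FPKM. The median log2 change of these 16 was 0.26, beside -0.01 over all genes. The share called was 33.3% of the binders, 28.6% of the BMP targets and 56.2% of the TGF-beta targets, beside the same 19.9%. Of the 18 genes named for the fraction here, 7 kept their call without either control library of the table: ANGPTL4, GDF15, LOXL2, BHLHE40, CTGF, UNC5B and TGFBR3. The other 11 missed it without one or both (adjusted p = 0.0524 to 0.201), and LTBP3, LTBP4, PMEPA1, SMURF2 and TGIF2 missed it with the replicate block as well (adjusted p = 0.051 to 0.0652).

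With magnolin CTGF was the only gene of the 7 lists past the test in replicates 3 and 4; its level dropped from 22.2 to 11.3 FPKM, which is a change of -0.92 on the log2 scale (SE 0.11, adjusted p = 0.0355 by limma). It did not pass with the replicate block (adjusted p = 0.0759) or with no filter on low values (0.14). Nor did it pass without any 1 library of these groups (log2 change -0.963 to -0.873). Over all 4 replicates ANGPTL4 alone passed with the fraction (log2 change 1.74, SE 0.232, adjusted p = 0.0298 by limma). It did not pass without replicate 3 (0.196), without replicate 4 (0.166) or with no filter on low values (0.223). With a term for the table in place of the replicate block it missed the threshold as well (0.0868). In replicates 1 and 2 none of the listed genes passed. CTGF with magnolin was slightly above control there (21.0 against 18.4 FPKM and 46.8 against 46.3 FPKM, log2 change 0.10, SE 0.621). With the fraction INHBE, TGFBR2, TGFBR3, SMAD3, SMURF2 and GATA2 did not keep their direction in both of these replicates, and the other genes named for it did. UNC5B barely rose (0.335 to 0.375 and 0.642 to 0.669 FPKM), GDF15 rose little (21.8 to 24.4 and 18.0 to 21.2 FPKM) and ANGPTL4 rose more (29.5 to 64.0 and 31.4 to 83.7 FPKM).

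**Figure D5:**
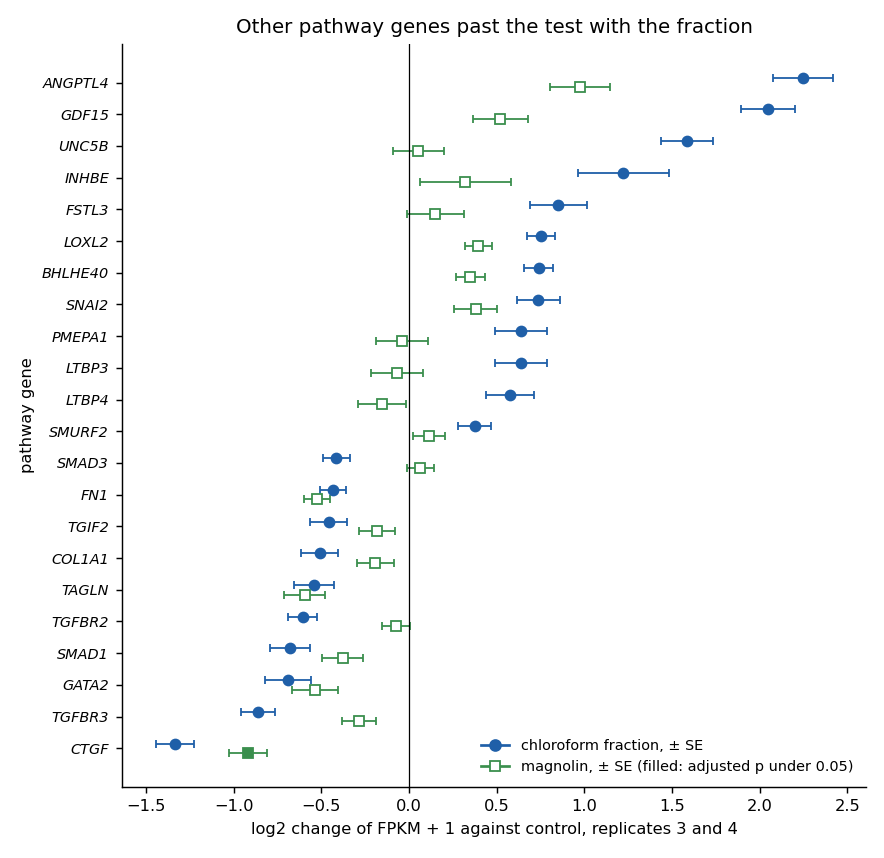
Change of log2(FPKM + 1) against control in replicates 3 and 4 (points, with SE as bars) for the 22 listed pathway genes that passed with the chloroform fraction, 12 higher and 10 lower; circles are the fraction and squares magnolin. The square of CTGF is the only filled one, with a limma adjusted p under 0.05.

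The genes whose levels ran most like those of a member were found by Pearson correlation of log2(FPKM + 1) over the 12 NCI-H1975 libraries, centred within each table, among 9617 genes. These values share libraries and are given as a description. For BMP4 they were S100A4 (r = 0.993), COL8A1 (0.992) and TXNDC15 (0.988). These 12 libraries include those of replicate 1, where S100A4 reached at most 2.19 FPKM against 8.03 to 24.5 FPKM in the others; over the 6 libraries of replicates 3 and 4 alone r was 0.972, 0.993 and 0.961. For TGFB2 they were THBS1 (0.963), ATP8B1 (0.941) and GALNT7 (0.939). For ID1 they were H3F3A (0.933), HSPA2 (0.919) and ATP6V0D1 (0.901). Between members, BMP2 and SMAD7 had r = 0.833 and SMAD6 and TGFB2 r = 0.793 over these libraries. Other pairs depended on the libraries: BMP4 and BMP2 had r = 0.372 over all 12 and -0.991 in replicates 3 and 4, and BMP4 and TGFB2 0.512 and 0.983.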

How the data were processed

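RNA sequencing of NCI-H1975 (12 libraries) and parental HCC827 (2 libraries) was read from 3 gene tables. Per the labels' protocols, RNA quality was checked on an Agilent bioanalyzer and libraries were made with NEB reagents, by a common or strand-specific method. The authors deposited FPKM per gene; the submitters' processing notes name hg38 as the build. For the aligner and the read counter a name was not given in the sources used here. All 58735 gene identifiers matched GENCODE release 29. FPKM times gene length gave whole multiples of 1 read (tolerance 0.05, genes of up to 2000 reads) in every library, so depth was rebuilt; the NCI-H1975 FPKM follow median-ratio size factors within a table. Precision of low genes is limited by counting at this depth. All pairs of libraries differed by more than sampling noise (smallest chi-square per gene 3.92). In the HCC827 table, 2 columns whose names match no sample label were not used.

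Genes that reached 1 FPKM in 2 or more libraries of a table (4 of 12 in the joint fit) were tested with limma 3.58.1 in R 4.3.3 on log2(FPKM + 1), with a trended empirical Bayes spread shared by the 3 NCI-H1975 groups and Benjamini-Hochberg adjustment over all genes (threshold 0.05). This scale understates changes of low genes. The fits were checked on simulated data. Alternatives were the replicate block, a pseudocount of 0.1, no filter, another scaling, voom on rebuilt reads and leaving out libraries. Deviations from group means correlated at 0.742 to 0.781 for same-numbered pairs within replicates 1 and 2. The same number matched best there in 6 of 6 pairs. Within replicates 3 and 4 they correlated at -0.028 to 0.030, with the same number best in 2 of 6, so no pairing was shown there. Over all 4 replicates the 12 pairs correlated at 0.302 to 0.859, which includes the difference between the tables and the replicate 1 split. The block and the same-number ratios in replicates 3 and 4 follow the label numbers alone. The members and lists were chosen with earlier results of these data known. Named pathway genes are up to 4 that passed in each list; 1 gene first put in a list is not reported here.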

Additional observations from a re-analysis of the deposited data

Results flagged for a closer look

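Of 27 groups of 4 NCI-H1975 libraries (9 genes in 3 groups), 2 held a library whose gap to the nearest other was past Dixon's critical value; chance gives about 1 in 20. BMP2 with the chloroform fraction was at 11.9 FPKM in replicate 1 and at 28.7 to 29.7 FPKM in the other 3 libraries (gap over range 0.947). SMAD7 with magnolin was at 5.17 FPKM in replicate 2 and at 2.44 to 2.82 FPKM in the others (0.86). Both groups span 2 tables normalized separately.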

How the results depend on the processing

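In replicates 3 and 4 the members' directions held under every alternative except for TGFB1, whose leave-one-out changes ran from -0.124 to 0.25 with the fraction and from -0.017 to 0.357 between the treatments. With the replicate block, called genes with magnolin against control went from 0 to 130 (members 0 to 2) in replicates 1 and 2 and from 92 to 43 (members 2 to 0) in replicates 3 and 4. The block gave 24 genes for the fraction against control and 24 between treatments in replicates 1 and 2, and 1311 between treatments in replicates 3 and 4; a term for the table in place of the block gave 1 gene with the fraction over all 4 replicates. With no filter on low values the counts in replicates 3 and 4 were 0 genes and 0 members with magnolin, 1598 genes with the fraction, and 752 genes and 0 members between treatments; over all 4 replicates the fraction gave 0. Voom on rebuilt reads gave 577 genes and 3 members with magnolin and 3374 genes between treatments in replicates 3 and 4. Over all 4 replicates it gave 27 genes and 1 member with magnolin, 301 genes and 3 members with the fraction and 2 genes between treatments, and a pseudocount of 0.1 gave 65 genes and 3 members with the fraction. Median-ratio rescaling gave the deposited values again, so scaling to equal FPKM sums was added after seeing the data; it changed no member count.

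Leaving out 1 library in replicates 3 and 4 gave 0 to 0 genes and 0 to 0 members with magnolin, 728 to 3174 genes with the fraction, and 226 to 3017 genes and 0 to 6 members between treatments. Leaving out 1 replicate number over all 4 gave 0 to 107 genes and 0 to 2 members with the fraction and 0 to 1 genes with magnolin. For the difference between the tables with the fraction it gave 0 to 410 genes, and the replicate block gave 56, with no member. In replicates 1 and 2, leaving out 1 library leaves unlike replicate numbers to be compared and turned several signs. With magnolin the changes ran from -2.359 to 0.695 for BMP4, -0.013 to 1.155 for BMP2, -0.117 to 1.034 for ID3 and -0.039 to 0.24 for TGFB1. With the fraction they ran from -2.106 to 0.948 for BMP4, -0.039 to 1.16 for BMP2, -0.699 to 0.452 for ID3, -0.175 to 0.524 for ID2 and -0.206 to 0.509 for TGFB1. Over all 4 replicates, leaving out 1 number gave -0.034 to 0.265 for ID1 and -0.04 to 0.057 for TGFB1 with magnolin, and -0.222 to 0.022 for ID2 with the fraction. A group left with 1 library is assumed to vary like the others.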
